A study of Mus musculus with 4 samples.

Results

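Methylation of the genes for laminin chains, integrin subunits and collagen chains was compared between mouse embryonic stem cells with and without a netrin-1 transgene. A gene was included when its symbol began with Lama, Lamb, Lamc, Itga or Itgb and a digit, or had the form of a collagen chain such as Col4a1. This rule found 79 of the 28777 genes in the deposited gene table: 11 laminin chains, 21 integrin subunits, 44 collagen chains and 3 genes (Itgb1bp1, Itgb1bp2 and Itgb3bp) that match by name but encode proteins that bind integrins. It uses names alone, so integrin genes with a letter in place of the digit, such as Itgav and Itgal, were not included. In the table of CpG islands 245 of 80045 features, listed under 41 of the same genes, were included: 49 islands, 98 shores (the flanks next to an island) and 98 shelves (the flanks beyond the shores).

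Laminins are trimers of an alpha, a beta and a gamma chain that, with collagen IV, form the basement membrane. Integrins are receptors of an alpha and a beta subunit through which cells hold on to laminins, collagens and fibronectin, and other collagens form fibrils, networks and transmembrane proteins. In early embryos laminin-111 (Lama1, Lamb1, Lamc1) and collagen IV (Col4a1, Col4a2) are among the first matrix proteins made, while most fibrillar collagens are made by mesenchymal cells. Netrin-1 is a secreted protein related in sequence to laminin chains.

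The cells were CGR8, a mouse embryonic stem cell line, grown with serum and LIF in both groups. The control group (2 libraries) was stably transfected with the empty ppy-cagg-ires-puro vector, and the netrin-1 group (2 libraries) with that vector encoding netrin-1. The labels do not say whether replicates are separate cultures, clones or DNA preparations, so p-values measure only the spread between these libraries, which may be technical. The assay was RRBS (reduced representation bisulfite sequencing), in which MspI cuts at CCGG and short fragments are sequenced after bisulfite conversion, so that CpG-rich sequence is covered best. No RNA was measured, so nothing here is a level of expression.

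A level is methylated calls as a percent of all cytosine calls in a feature, and a difference is the netrin-1 mean minus the control mean in percentage points. The gene table held 31452170 and 41964981 calls in control replicates 1 and 2 and 36269454 and 53293458 in netrin-1 replicates 1 and 2. Of these, 158372 to 260387 calls per library fell in member gene bodies. For a member body the 95% Wilson interval of 1 library had a median width of 3.9 points (1.61 to 14.65), which covers counting error only. At least 10 calls in every library were found in 58 of 79 member promoters (500 bp to either side of the start) and 77 of 79 member bodies. The same held for 47 of 49 islands, 60 of 98 shores and 37 of 98 shelves. The promoters of 19 members had 0 calls in all libraries, among them Lama2, Lamb2, Lamb3, Itga6, Itgb6 and Itgb8, and the bodies of Itga4 and Itgb1bp2 are listed with 0 calls. Features all over the genome had lower mean levels in the netrin-1 group, so each value for the members is given beside that for all features of its kind. The promoters of Pou5f1, Sox2, Klf4, Sall4 and Tdgf1, genes active in pluripotent cells, were at no more than 2.5% in each library. That of Esrrb, another such gene, was at 51.7% and 9.43% in the controls and 49.4% and 14.8% in the netrin-1 libraries. The promoter of Nanog had 0 calls, as did that of Elf5, which is known to be methylated in embryonic stem cells. Sox2 and Klf4 have a CpG island at their start. Of all measured protein-coding promoters, 94.33% with an island and 40.55% without one were under 5% in both groups. Low levels at these genes therefore do not identify the cell type.

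Most promoters of the members were nearly free of methylation in both groups. Of the 58 measured promoters 41 were under 5% in both groups, and 5 were over 20% in controls. The promoter shared by Col4a1 and Col4a2, which encode the common collagen IV chains and are transcribed in opposite directions, was at 0.621% and 0.504% in controls and 0.409% and 0.450% in netrin-1 libraries, on 977 to 1779 calls. The promoter of Itgb1, the beta subunit shared by most matrix-binding integrins, was at 0.844% and 0.936% in controls and 0.813% and 1.09% in netrin-1 libraries. Both genes' groups lay within 1 point of each other, and the Itgb1 groups overlapped. The laminin promoters of Lama5, Lamb1 and Lamc1 were likewise all at or under 2.34% in every library, while that of Lama1 had under 10 calls in at least 1 library. The Lamc3 promoter was at 8.23% and 6.25% in controls and 1.57% and 5.71% in netrin-1 libraries, a difference of -3.60 points on 70 to 231 calls, with groups that do not overlap and too few informative calls for a test. Of the 7 measured laminin promoters 4 (57.1%) lay lower in both netrin-1 libraries than in both controls, against 21.0% of all promoters. However, 6 of the 7 were under 5% in both groups. Their median difference was small, at -0.266 points for the 7 beside -0.137 points over all promoters. Those of the fibronectin receptor subunit Itga5 and the laminin receptor subunit Itga3 stayed at or under 2.51%. The 2 promoters with 0% in all 4 libraries were those of Col14a1 and Col4a6; a count of 0 in the netrin-1 group allows up to 2.21% and 1.66% (3 calls of the total).

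The 5 promoters over 20% in controls (Col6a1, Itgb2, Col6a5, Col3a1 and Itga2b) were all of genes without a CpG island at their start, while among those with an island Itga11 was at 12.3% and Col6a2 at 11.1% in controls. Averages over the 37 measured promoters classed by the authors as holding an island were 2.20% ± 0.470 (SD, n = 2) in controls and 1.75% ± 0.0892 in netrin-1 libraries. Over the 21 without an island they were 17.0% ± 0.588 and 13.4% ± 0.405. The stretches below, the 250 bases before the RefSeq start of 6 genes, are shown because they run from no CpG to a dense island. They are RefSeq sequences on GRCm38.p6, written 5′ to 3′ on the gene's strand, with each CG in capitals. The stretches lie at chr1:45311288-45311537 (Col3a1, plus strand), chr11:102469884-102470133 (Itga2b, minus), chr3:145292222-145292471 (Col24a1, plus), chr9:105960644-105960893 (Col6a5, minus), chr8:11312555-11312804 (Col4a2, plus) and chr8:128685404-128685653 (Itgb1, plus).
Col3a1: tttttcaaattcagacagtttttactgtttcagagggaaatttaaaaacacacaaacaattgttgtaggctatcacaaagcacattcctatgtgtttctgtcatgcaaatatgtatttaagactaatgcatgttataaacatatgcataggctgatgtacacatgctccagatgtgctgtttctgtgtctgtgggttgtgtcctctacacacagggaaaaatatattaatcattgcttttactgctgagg
Itga2b: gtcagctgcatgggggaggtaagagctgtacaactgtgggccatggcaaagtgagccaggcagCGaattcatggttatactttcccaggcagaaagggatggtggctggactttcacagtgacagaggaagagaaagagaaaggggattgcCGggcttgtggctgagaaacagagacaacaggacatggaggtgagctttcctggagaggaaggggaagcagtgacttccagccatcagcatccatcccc
Col24a1: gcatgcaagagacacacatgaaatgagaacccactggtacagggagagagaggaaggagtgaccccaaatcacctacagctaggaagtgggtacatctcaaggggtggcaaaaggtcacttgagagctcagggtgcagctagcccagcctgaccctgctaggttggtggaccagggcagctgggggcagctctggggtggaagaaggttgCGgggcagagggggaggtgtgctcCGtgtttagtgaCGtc
Col6a5: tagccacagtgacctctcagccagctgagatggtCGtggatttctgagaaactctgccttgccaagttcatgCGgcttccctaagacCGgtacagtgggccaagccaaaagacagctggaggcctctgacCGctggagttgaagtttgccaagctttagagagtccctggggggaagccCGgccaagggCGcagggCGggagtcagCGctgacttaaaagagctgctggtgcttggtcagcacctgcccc
Col4a2: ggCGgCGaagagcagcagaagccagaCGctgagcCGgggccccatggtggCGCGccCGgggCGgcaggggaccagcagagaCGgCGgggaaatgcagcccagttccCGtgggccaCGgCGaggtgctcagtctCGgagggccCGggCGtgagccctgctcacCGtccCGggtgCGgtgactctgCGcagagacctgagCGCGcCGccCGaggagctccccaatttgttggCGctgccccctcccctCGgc
Itgb1: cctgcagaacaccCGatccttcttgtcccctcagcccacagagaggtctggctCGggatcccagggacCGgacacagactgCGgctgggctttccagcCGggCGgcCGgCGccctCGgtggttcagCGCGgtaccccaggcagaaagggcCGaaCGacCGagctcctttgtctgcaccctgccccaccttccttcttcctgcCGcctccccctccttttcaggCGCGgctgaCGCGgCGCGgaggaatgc
The stretches hold 0, 2, 3, 8, 26 and 21 CG, in that order, and the mean control levels of the measured promoters were 33.9%, 31.4%, 11.8%, 45.8%, 0.562% and 0.890%. The measured promoter reaches beyond the stretch on both sides, so calls for Col3a1 come from outside the printed bases. For Itga2b the RefSeq start lies 239 bases from the deposited start, so most of its stretch lies after the deposited start. Of the 79 members 51 were matched to a RefSeq promoter whose start lay within 500 bases of the deposited start. Of these 51, 38 had at least 10 calls in every library. Over those 38 the rank correlation between the number of CG in the stretch and the control level was -0.55, given as a description, since CpG count also decides what RRBS covers. The 6 with 5 or fewer CG had a median control level of 21.6%, and the 15 with more than 15 CG a median of 0.801% and a highest value of 4.21%. The MspI site CCGG, which reads the same on both strands and contains 1 CG, was present in 51.0% of the 51 member stretches and in 47.1% of all 32851 RefSeq promoters of that length. It was present in 65.8% of the member stretches with at least 10 calls and in 7.7% of the 13 with fewer.

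Among the methylated promoters, Itgb2, Col6a5 and Col24a1 had lower values in both netrin-1 libraries than in both controls. Itgb2 encodes the beta subunit of the leukocyte integrins. Its promoter was at 83.3% and 62.9% in controls and 33.3% and 33.9% in netrin-1 libraries, on 30 to 62 calls per library, too few to be tested. Col6a5 encodes a chain of collagen VI, a microfibril-forming collagen. Its promoter (chr9:105960143-105961143) was at 43.4% and 48.1% in controls and 29.95% and 30.9% in netrin-1 libraries, a difference of -15.4 points on 320 to 499 calls (limma-moderated adjusted p = 0.213). Col24a1, a minor fibrillar collagen gene, was at 10% and 13.6% against 3.79% and 3.54%, a difference of -8.12 points that was not tested for want of information. The groups of these genes do not overlap, but no member promoter passed the test.

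The other methylated promoters mostly overlapped between the groups. Col3a1, the chain of collagen III, was at 25.8% and 41.9% in controls and 30.3% and 25.5% in netrin-1 libraries (adjusted p = 0.644). Itga2b, the alpha subunit of the platelet fibrinogen receptor, was at 36.4% and 26.3% against 28.2% and 21.7% (adjusted p = 0.655). In both genes 1 netrin-1 library lay within the control range. Col1a1, a chain of collagen I, was at 2.56% and 30.4% against 31.4% and 25% on 24 to 69 calls, so that its 2 controls differ by more than its groups. Col6a1 was at 100% in every library but netrin-1 replicate 1 (88.9%), on 11 to 18 calls. Col4a3 and Col4a4, whose products join the collagen IV network of the kidney filter, share a start region with identical calls, at 6.74% and 7.08% in controls and 4.38% and 5.52% in netrin-1 libraries (adjusted p = 0.763). Col8a2, a chain of the short network collagen VIII, was at 5.40% and 3.02% against 0.561% and 2.36% (adjusted p = 0.440). For the shared Col4a3 and Col4a4 start and for Col8a2 the groups did not overlap, and neither difference passed the test.

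**Figure D1:**
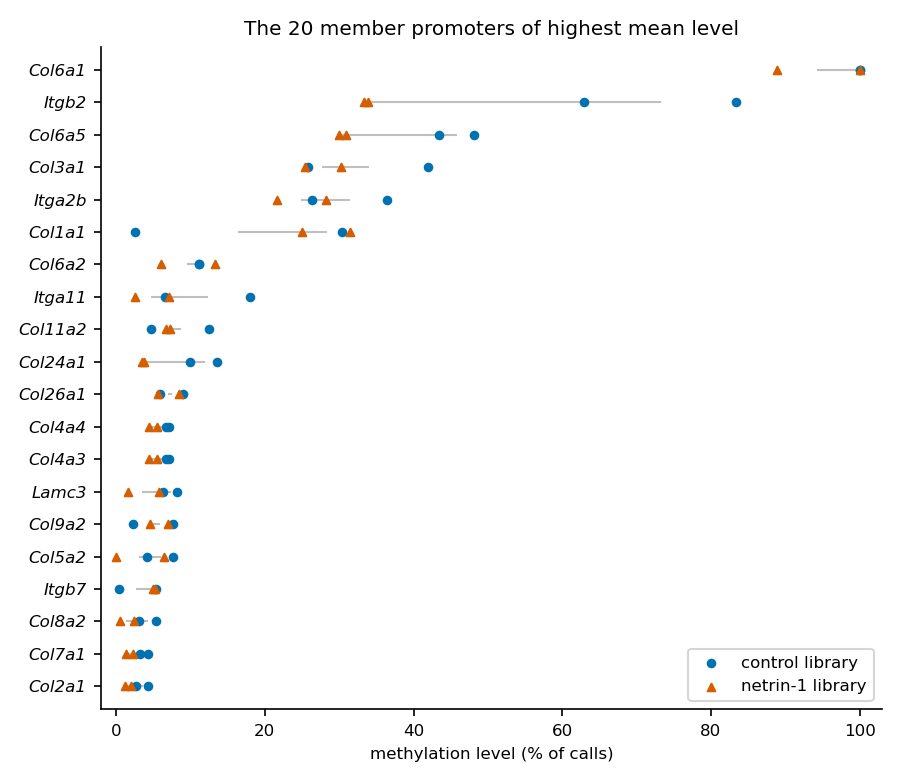
Methylation level (percent of calls, x axis) of the 20 member promoters with the highest mean level, 1 point per library and a grey line between the group means. Itgb2, Col6a5 and Col24a1 have both netrin-1 points below both control points, at differences of -39.5, -15.4 and -8.12 percentage points, while the Col1a1 controls lie far apart.

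Over all 58 measured promoters the mean level was 7.56% ± 0.0867 (SD, n = 2) in controls and 5.96% ± 0.204 in netrin-1 libraries, a difference of -1.61 points. In 36 the netrin-1 mean was lower, in 20 higher and in 2 equal. Relative to the mean difference of all promoters (-0.678 points) 20 were lower and 38 higher. That mean lies below the median of all promoters, so most promoters of any kind are higher by this measure. The median difference was -0.274 points, beside -0.137 points over all 16091 measured promoters, and the mean is carried by few members: pooled over calls it was -0.762 points. Both netrin-1 libraries lay below both controls in 18 members (31.0%), against 21.0% of all promoters, and above them in 4, against 13.2%. The 18 count Col4a1 and Col4a2 separately although their calls are identical, and likewise Col4a3 and Col4a4. The 4 that were higher include Itgb4, the beta subunit of the hemidesmosome, at 0% and 1.27% in controls and 4.58% and 1.85% in netrin-1 libraries. Enough informative calls for a test were available in 7 member promoters, which include both Col4a3 and Col4a4 with their identical calls. None was called at an adjusted p under 0.05, and Col6a5 alone had an unadjusted p under 0.05, against 11.2% of tested promoters that were lower at that level.

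Gene bodies of the members carried more methylation and larger differences. Over 77 bodies the mean level was 36.0% ± 1.05 (SD, n = 2) in controls and 32.9% ± 0.714 in netrin-1 libraries, a difference of -3.08 points. The body mean per library was 35.2% and 36.7% in controls and 33.4% and 32.4% in netrin-1 libraries, so the groups did not overlap. The difference was lower in 65 bodies and higher in 12, with a median of -2.48 points beside -1.74 points over all 18839 measured bodies, of which 70.3% were lower. Both netrin-1 libraries lay below both controls in 41 member bodies (53.2%) against 33.7% of all bodies, and above them in 1 against 7.59%. All 77 bodies and the 7 promoters were tested. None of these 84 features was called, against 0.00581% of the 17209 gene features of the whole table. At an unadjusted p under 0.05, 17 member bodies were lower (22.1%) and none higher, against 12.0% of all tested bodies lower. When libraries were centred on their own mean levels, 9 of the 84 features had an unadjusted p under 0.05, of which 8 were lower (10.7% and 9.52%, against 8.65% and 5.82% of all tested gene features), and the mean difference of bodies, taken relative to all bodies, was -0.946 points. Relative to the mean difference of all bodies (-2.13 points, below their median), 43 member bodies were lower and 34 higher. With 1 library left out the number was between 10 and 16, or 12.2% to 19.0% of the members tested, against 8.98% to 17.2% of all tested gene features; with all libraries it was 18, or 21.4% against 12.8%.

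Collagens made up 11 of the 17 bodies under an unadjusted 0.05 and 44 of the 77 bodies tested. The share under it was 11 of 44 collagens, 2 of 11 laminins, 3 of 20 integrins and 1 of 2 integrin-binding genes, and these shares were not compared by a test. Col22a1 encodes a collagen of tissue junctions that associates with fibrils. Its body (chr15:71795795-72033727) was at 46.2% and 45.6% in controls and 34.1% and 31.0% in netrin-1 libraries, a difference of -13.4 points (adjusted p = 0.139). Every netrin-1 value lies more than 11 points below every control. The windows within 1 Mb of this gene held 0.746 times as many scaled calls in netrin-1 as in control libraries, and the ratio was 0.703 to 0.747 for the 5 members on chromosome 15 (Col14a1, Col22a1, Col2a1, Itga5 and Itgb7) and 0.86 to 1.13 for the others. Whether this coverage bears on the level was not tested. The adjusted p of Col22a1, Col19a1 and Itga1 depended on the treatment. Some alternatives leave 1 library in a group, and some call many more features over the whole table. Over all alternatives the adjusted p ran from 0.00873 to 0.432 for Col22a1, from 0.0200 to 0.675 for Col19a1 and from 0.0370 to 0.830 for Itga1.

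The next were fibrillar and fibril-associated collagens. Col24a1 (chr3:145292972-145552011), whose untested promoter was also lower in both netrin-1 libraries, was at 39.4% and 45.1% in controls and 32.5% and 33.6% in netrin-1 libraries (-9.22 points, adjusted p = 0.187). Col19a1 (chr1:24261890-24586972), a fibril-associated collagen gene, was at 40.8% and 46.3% against 36.3% and 34.3% (-8.23 points, adjusted p = 0.187). Col11a1 (chr3:114031040-114220718), a chain of the cartilage collagen XI, was at 32.3% and 32.9% against 23.0% and 22.5% (-9.83 points, adjusted p = 0.206). In each of these 3 genes the netrin-1 values all lay below the control values, and Col11a1 had replicates within 1 point of each other in both groups. Col12a1, Col14a1, Col8a1, Col4a5, Col6a1, Col6a4 and Col3a1 also had an unadjusted p under 0.05, with differences from -5.47 to -8.51 points and adjusted p from 0.245 to 0.371.

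Fibril-associated collagens (FACIT), which coat fibrils without forming them, had the most negative median of the collagen groups with more than 5 members, at -6.90 points. Of 9 bodies 8 were lower and 4 had an unadjusted p under 0.05. The 11 fibrillar collagens had a median of -3.15 points with 8 lower, and the 6 collagen IV genes -2.65 points with 6 lower. Collagen VI genes had a median of -3.57 points with 4 of 6 lower, and the 4 transmembrane collagens had a median of -0.172 points. The neighbours Col4a1 and Col4a2 differed little in value. Col4a1 was at 40.9% and 39.0% in controls and 39.4% and 38.6% in netrin-1 libraries, and Col4a2 at 42.0% and 42.1% against 44.2% and 39.5%. Their groups overlap, at -0.964 and -0.188 points. Among fibrillar chains Col1a1 differed by -2.43 points, Col2a1 by -0.178 points and Col1a2 by 1.91 points, none with an unadjusted p under 0.05.

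In the other direction, Col10a1, a network collagen of the growth plate, was the only collagen body with both netrin-1 libraries above both controls. It was at 51.9% and 53.7% in controls and 58.3% and 63.5% in netrin-1 libraries, a difference of 8.09 points with an unadjusted p of 0.160. It was not called.

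Among laminin chains 8 of 11 bodies were lower, with a median of -1.48 points, while relative to the mean difference of all bodies 4 were lower and 7 higher. Lama2, the alpha chain of muscle and nerve laminin, has the longest member body (chr10:26980036-27619258). It was at 31.8% and 38.3% in controls and 26.2% and 27.7% in netrin-1 libraries, a difference of -8.17 points (adjusted p = 0.206). Lamb3 (chr1:193208199-193343878), the beta chain of the skin laminin-332, was at 45.2% and 46.7% against 40.3% and 33.2% (-9.22 points, adjusted p = 0.287). In both the groups are apart, although the Lamb3 netrin-1 libraries lie well apart from each other. The laminin-111 chains did not move together: Lama1 differed by -2.40 points and Lamc1 by -3.71 points, while Lamb1 was 1.99 points higher, at 30.7% and 27.6% in controls and 32.9% and 29.3% in netrin-1 libraries. Lama5, the alpha chain of the embryonic basement membrane laminin-511, differed by -0.871 points and Lamb2 by 1.15 points. None of these had an unadjusted p under 0.05 except Lama2 and Lamb3.

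All 20 measured integrin bodies had a lower mean in the netrin-1 group, with differences from -0.00482 to -8.61 points and a median of -2.37 points. Relative to the mean difference of all bodies 12 were lower and 8 higher. The collagen receptor subunits Itga1 and Itga2 and the TGF-beta activating subunit Itgb8 had an unadjusted p under 0.05. Itga1 was at 36.5% and 34.9% in controls and 32.4% and 26.8% in netrin-1 libraries (-6.09 points, adjusted p = 0.292). Itga2, on the same chromosome and next to it, was at 44.8% and 46.2% against 39.7% and 39.6% (-5.85 points, adjusted p = 0.344). Itgb8 was at 27.4% and 19.9% against 14.2% and 15.9% (-8.61 points, adjusted p = 0.368). The groups of each of the 3 are apart. The windows within 1 Mb outside the body were lower too, at -7.55 points for Itga1 and -6.59 points for Itga2. Each of these flanks includes windows in the other gene, so they are not separate data. The shared subunit Itgb1 was at 17.0% and 10.02% against 8.32% and 6.96% (-5.86 points, unadjusted p of 0.108). The laminin receptor subunits had small differences, all reversed when libraries were centred on their mean over all gene features. These were -1.43 points for Itga6, -1.13 points for Itga7, -0.934 points for Itgb4 and -0.00482 points for Itga3. The Itga3 groups overlapped, at 26.6% and 31.3% against 32.9% and 25%. Of the integrin-binding genes, Itgb3bp was at 13.7% and 13.9% in controls and 10.1% and 6.84% in netrin-1 libraries (-5.34 points, adjusted p = 0.343).

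**Figure D2:**
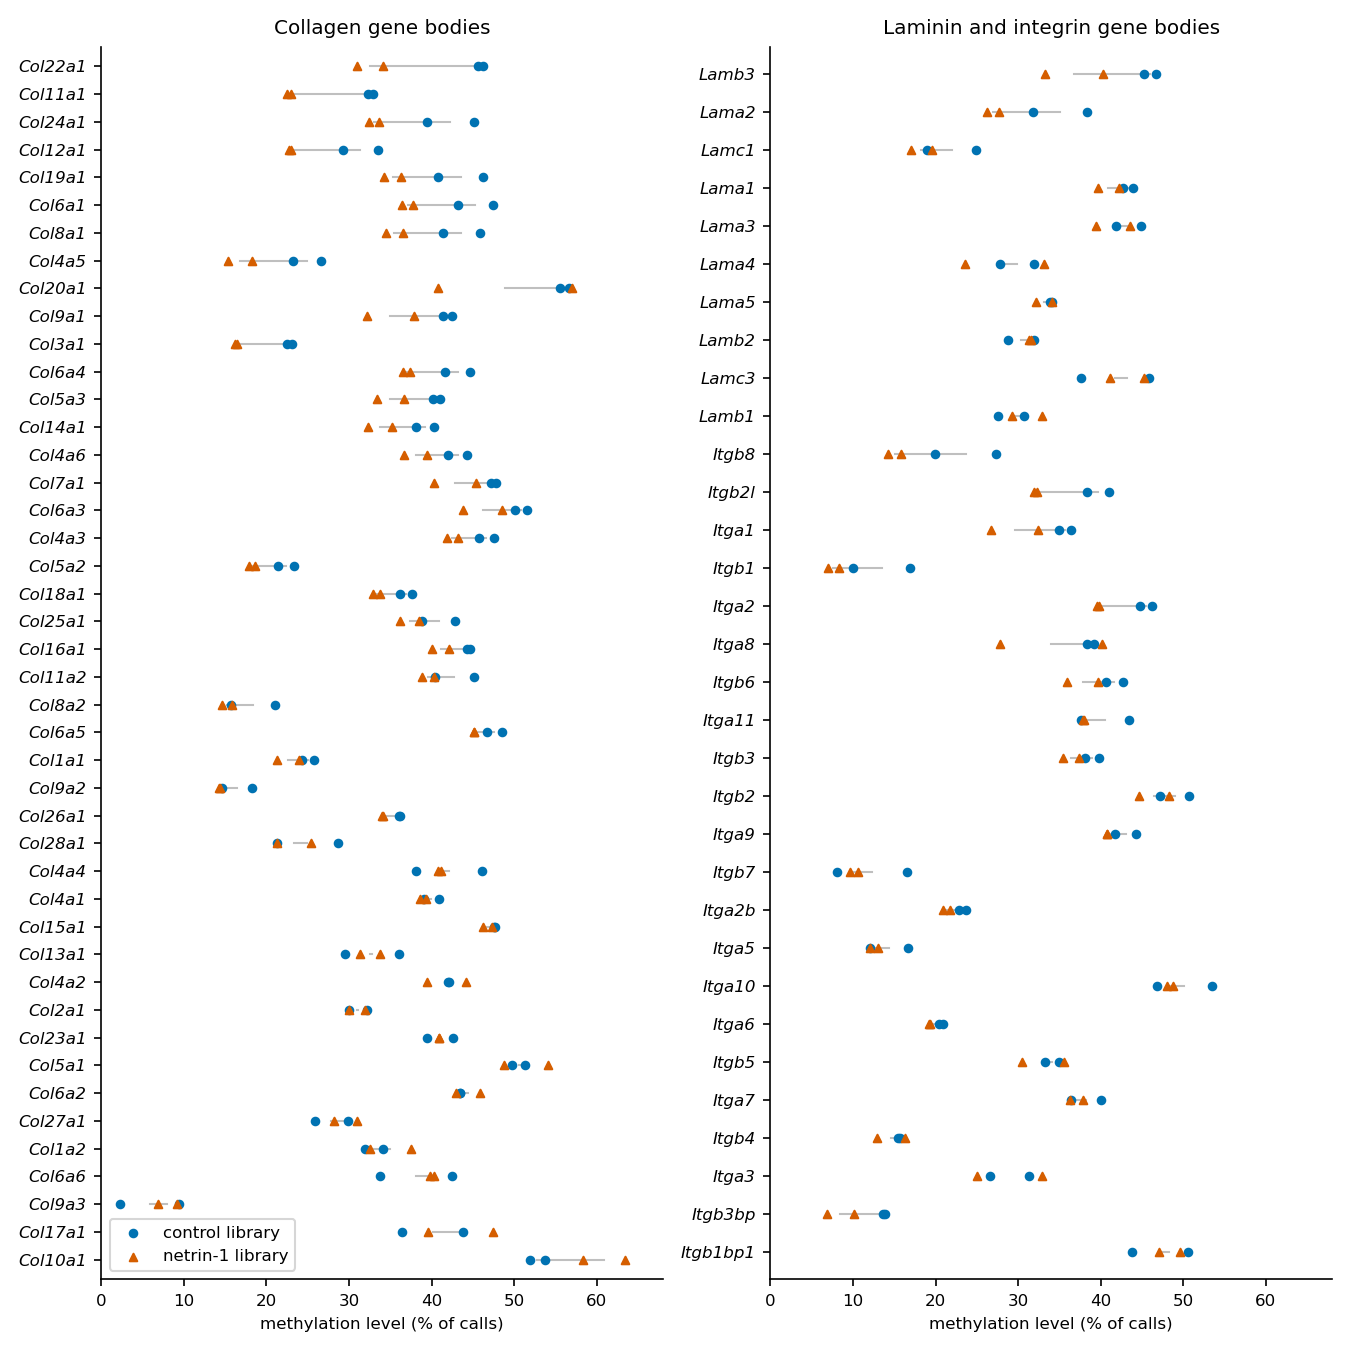
Methylation level (percent of calls, x axis) in the measured member gene bodies except 1 that is not reported, 1 point per library and a grey line between the group means. Left are the 44 collagens and right, from the top, the laminins, the integrins and the integrin-binding genes, each sorted by difference; in 41 genes both netrin-1 points are left of both control points, and in Col10a1 both are right of them.

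The difference was larger in members without a CpG island at their start. These 40 bodies went from 38.0% ± 1.04 (SD, n = 2) in controls to 33.6% ± 0.0902 in netrin-1 libraries, with a median of -4.67 points, and 35 were lower. Of them 14 had an unadjusted p under 0.05. For the 37 members with an island the median was -1.15 points, 30 were lower and 3 had an unadjusted p under 0.05. Over all protein-coding genes the medians were -2.24 points without an island and -1.48 points with one, and 13.6% and 10.8% of tested bodies were lower at that unadjusted p. Body length varied with the difference as well. The 26 longest member bodies (130 to 639 kb) had a median of -4.47 points, the next 26 had -2.55 points and the 25 shortest (6.6 to 44.9 kb) -1.98 points. The rank correlation of length with difference was -0.294 over 77 members and -0.123 over 16404 protein-coding genes, given as a description only. By methylation level, the 27 members at 30 to 40% had a median of -3.52 points, beside -2.82 points for all protein-coding bodies in that range, and the 25 at 40 to 50% had -2.40 points beside -2.16 points. The 11 under 20% had -2.15 points beside -0.932 points, the 11 at 20 to 30% had -2.43 points beside -2.50 points, and the 3 over 50% had 0.907 points beside -1.42 points. The members' median was thus below that of all bodies in 3 of these 5 ranges.

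**Figure D3:**
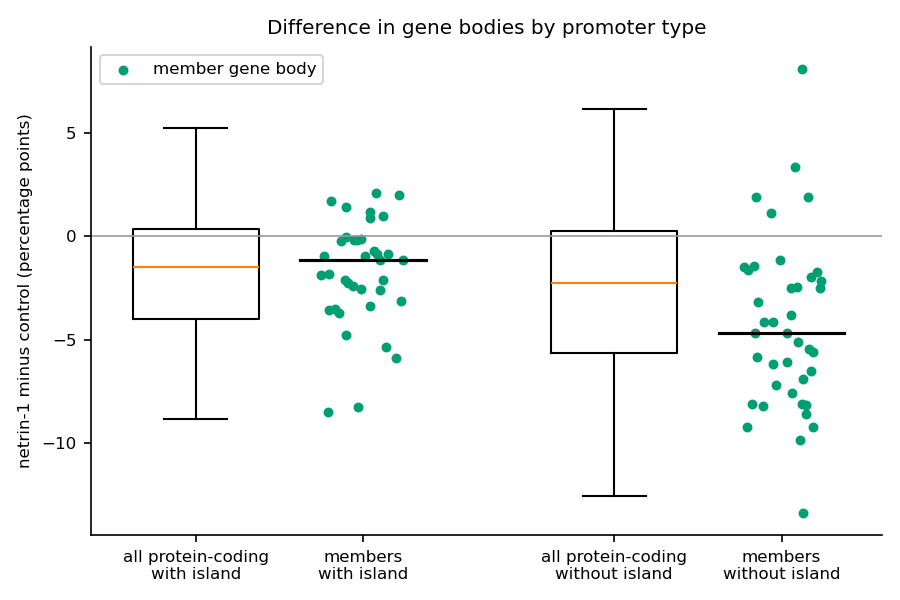
Netrin-1 minus control difference (percentage points, y axis) in gene bodies of genes with and without a CpG island at the start. Boxes show all protein-coding genes (median, quartiles, whiskers at the 5th and 95th percentile) and dots the members, with their median as a black bar at -1.15 points with an island and -4.67 points without.

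The surroundings of the members were lower too. In 100 kb windows within 1 Mb of each gene and outside its body, the netrin-1 mean was lower for all 77 members, with a median of -3.05 points and a range from -7.55 to -0.284 points. Over all 18839 measured bodies the same windows had a median of -2.59 points and were lower for 99.5%. The body was more negative than its flank in 36 of 77 members (46.8%), against 39.98% of all bodies. Col22a1 was one of these, at -13.4 points in the body and -4.80 points in the flank, as were Lamb3 (-4.22 points in the flank), Col24a1 (-3.01 points) and Col8a1 (-8.12 points in the body and -2.36 points in the flank). Col10a1, higher in the body, had a flank at -3.35 points. The rank correlation between body and flank differences was 0.375 over the 77 members, which is given as a description, because neighbouring members share windows.

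**Figure D4:**
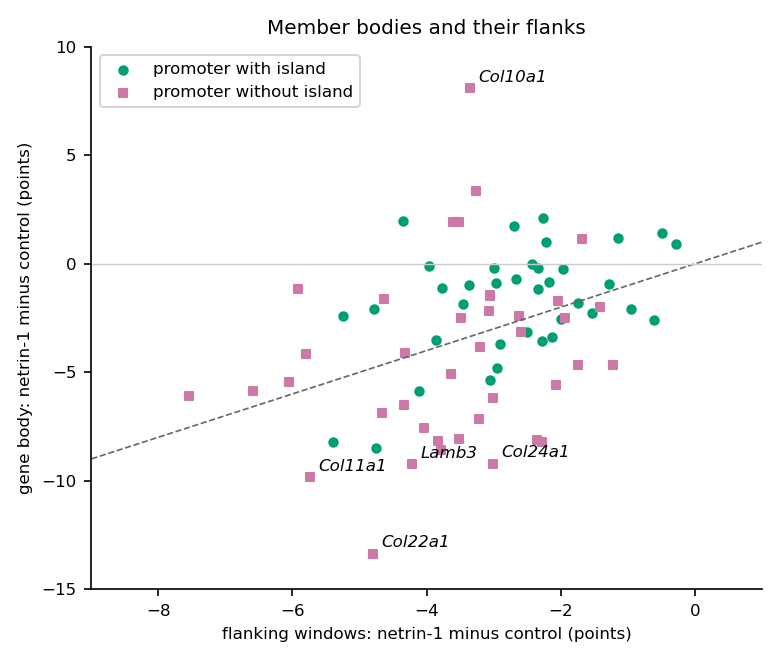
Difference in the gene body (y axis, percentage points) against that in the 100 kb windows within 1 Mb outside it (x axis) for the 77 members, coloured by promoter type. All flanks are below 0, from -7.55 to -0.284 points; the dashed line marks equal differences, and Col22a1 and Col10a1 lie farthest below and above it.

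In CpG islands the members were nearly unmethylated. Over 47 islands the mean was 3.64% ± 0.463 (SD, n = 2) in controls and 3.43% ± 0.159 in netrin-1 libraries, a difference of -0.216 points that lay within the control spread. In 14 both netrin-1 libraries lay below both controls, beside 20.1% of all islands, and in 5 above, beside 13.7%. The exception in level was Col6a2, a chain of collagen VI, whose island inside the gene (chr10:76614378-76614626) was at 65.3% and 52.1% in controls and 51.1% and 66.3% in netrin-1 libraries (adjusted p = 0.911). Shores went from 14.7% ± 1.79 to 13.6% ± 1.13, a difference of -1.05 points with overlapping groups, with 14 of 60 lower in both netrin-1 libraries (23.9% of all shores) and 8 higher (9.96%). Shelves went from 31.7% ± 0.846 to 27.8% ± 1.98, a difference of -3.89 points. Of 37 shelves 29 were lower, and in 12 the 2 netrin-1 libraries lay under both controls (28.0% of all shelves) and in 2 above (10.1%). Relative to the mean difference of all shelves (-2.02 points, below their median) 25 were lower and 12 higher. The shelf median was -4.27 points beside -1.24 points over all shelves. Of 47 member features tested 0 were called, against 0.186% of the CpG island table, and 6 had an unadjusted p under 0.05, all lower, against 10.5% lower in the table. These were 3 shores and 3 shelves, against 10.4% of tested shores and 10.4% of tested shelves.

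The features of lowest p lay mostly inside genes already described. Of the 153 member features with at least 1 call in every library, 144 overlap a member promoter or body, so they are not separate data. The Col19a1 shore (chr1:24584522-24586521), at the start of the gene, was at 35.1% and 42.4% in controls and 23.8% and 23.5% in netrin-1 libraries, a difference of -15.1 points (adjusted p = 0.188). The shore of Itga8 (chr2:12299538-12301537), a receptor subunit needed for kidney development, was at 26.7% and 25.7% against 15.1% and 10.1% (-13.6 points, adjusted p = 0.285). A shore inside Col8a2 (chr4:126299040-126301039) was at 35.2% and 51.9% against 28.0% and 25.1% (-17.0 points, adjusted p = 0.291). In these 3 shores the groups are apart, and the Col8a2 controls differ from each other by about as much as the groups.

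Differences in both directions appeared among the shelves: lower in Lama5 and Col2a1, and higher in Lamb1. The Lama5 shelf (chr2:180221010-180223009) was at 20.1% and 29.4% in controls and 8.66% and 12.8% in netrin-1 libraries (-14.0 points, adjusted p = 0.296), while the promoter of the gene was under 1% and its body differed by less than 1 point. The Col2a1 shelf (chr15:97997891-97999890) was at 33.9% and 31.5% against 17.2% and 22.5% (-12.9 points, adjusted p = 0.402), on the chromosome of lower netrin-1 coverage. The Lamb1 shelf (chr12:31260946-31262945) was at 9.68% and 24.1% against 42.9% and 27.7% (18.4 points), on 62 to 101 calls and not tested. The Lamc3 shelf was at 20.3% and 48.2% against 13.3% and 22.9%, with overlapping groups (adjusted p = 0.341). Shores of Col15a1 and Col6a2 were higher in both netrin-1 libraries, by 12.2 and 9.58 points; the first was not tested and the second had an unadjusted p of 0.133.

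**Figure D5:**
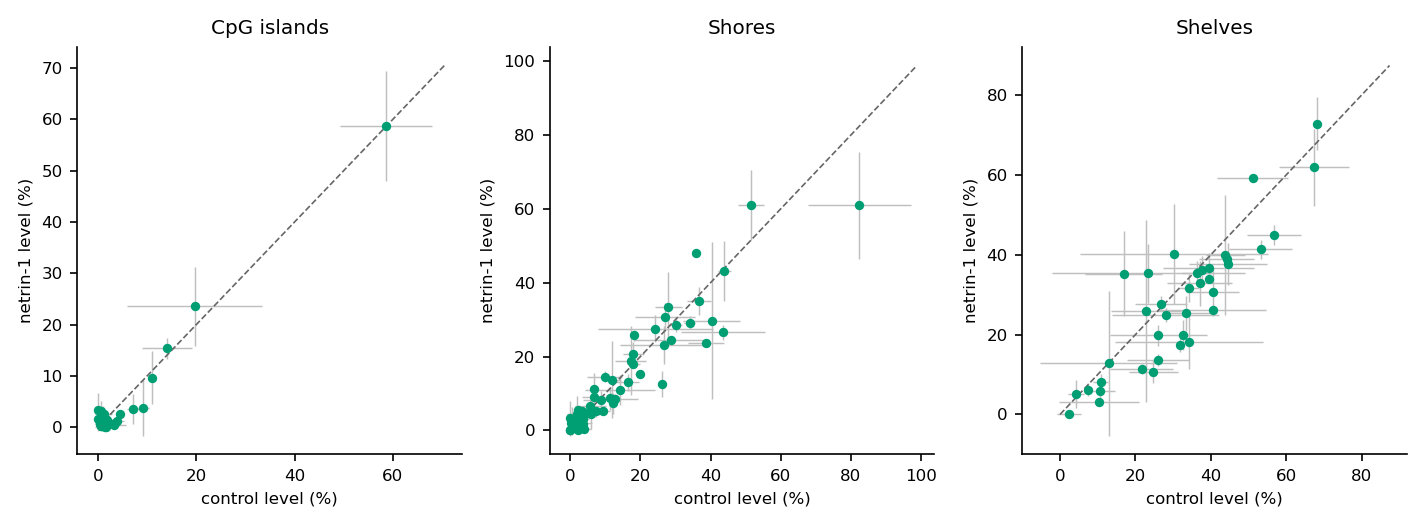
Netrin-1 mean level (y axis, percent) against control mean level (x axis, percent) in the 47 islands, 60 shores and 37 shelves of the members; bars are SD over 2 libraries and the dashed line marks equal levels. Most islands sit near 0, and 29 of 37 shelves lie below the line.

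Other genes of the same pathway were read in the same way. Of 51 genes for basement membrane partners, other matrix receptors, collagen-processing enzymes and adhesion proteins, 39 bodies were lower and 12 higher, with a median of -2.19 points. Both netrin-1 libraries lay under both controls in 20 (39.2%), against 33.7% of all bodies. None of 49 tested bodies was called, and 7 (14.3%, against 12.0% of all tested bodies) had an unadjusted p under 0.05, all lower: Fras1, Frem2, Loxl3, Loxl4, P4ha2, Pcolce and Cd44. Lower bodies made up 12 of 14 basement membrane partners, 12 of 15 collagen-processing genes, 8 of 10 receptors and 7 of 12 adhesion genes. Loxl4, an enzyme that crosslinks collagen, was at 46.1% and 49.8% in controls and 37.6% and 30.3% in netrin-1 libraries (-14.0 points, adjusted p = 0.350). Fras1, a basement membrane protein that acts together with Frem2, was at 43.3% and 48.6% against 41.9% and 40.03% (-4.97 points, adjusted p = 0.336). The groups of both are apart, and neither was called.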

How the data were processed

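RRBS libraries of CGR8 cells (2 control, 2 netrin-1) were analysed from 3 deposited tables (100 kb windows, CpG island features, genes). Every table holds, per the file headers, counts of covered positions, of all calls and of methylated calls and the methylation level as a fraction, all made by the authors. The builds mm10 and GRCm38 and FastQC are named in the submitters' processing notes. Aligner, methylation caller, filters and conversion rate were not given in the sources used here.

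Levels were recomputed from the deposited counts. Features with at least 10 calls in every library, levels not identical in all 4, and calls × level × (1 - level) averaging at least 25 per library entered a quasi-binomial logistic model of methylated against unmethylated calls. Dispersion was moderated with limma 3.58.1 (trend on coverage, robust, floor of 1; R 4.3.3). Benjamini-Hochberg adjustment ran over all tested features of each table, at a threshold of 0.05. The test was tried on simulated data with planted shifts larger than most differences here, so that trial does not show how it performs for differences of this size. Sequence content was counted with Python 3.11.15 and pandas 2.3.3. Means over members are given as mean ± SD over 2 libraries without a test, since 2 libraries against 2 cannot give a permutation p under 0.333. The members, gene lists and test were chosen with earlier results of these data known. Named features were all called members, the 6 with the largest differences between groups that do not overlap per class, the 10 of smallest p per table, the 5 of highest level per class, and a set picked for role, of which 1 gene is not reported here. The text gives values for part of them and ranges or counts for the rest, such as most islands. Further features (such as Itga2, Itga7, Col6a4) were named after their values were seen. Alternatives were other minimums, no robust step, centred libraries, limma on M values, a replicate block and leaving out each library.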

Additional observations from a re-analysis of the deposited data

How the results depend on the processing

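The count of called features depended on the treatment. Over all gene features, 1 was called; without the information minimum 75 were, with limma on M values 0 (1736 with an unadjusted p under 0.05) and with 1 library left out 18 to 444. Over all CpG island features, 22 were called, against 412, 2 and 22 to 67. Among member gene features 0 were called, 1 without the information minimum (Col22a1 body, adjusted p = 0.0322) and 0 to 3 with 1 library left out; the 3, without netrin-1 replicate 1, were the bodies of Col19a1 (adjusted p = 0.0200), Itga1 (0.0370) and Col22a1 (0.0156). Leaving out a library leaves 1 in its group, which is assumed to vary like the other group, so member gene features called in those runs are not listed. Among member CpG island features 0 were called in every alternative run.

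With the replicate number as a block, 299 of 17209 gene features and 14 of 11815 CpG island features were called. Of the 84 tested member gene features 4 were called, all bodies: Col22a1 (adjusted p = 0.00873), Col24a1 (0.0223), Col19a1 (0.0244) and Lama2 (0.0439). The difference of replicate 1 from replicate 2 in controls had correlations of 0.00283 to 0.0290 with that in netrin-1 libraries. Counting error in features with few calls lowers such correlations. They therefore cannot decide whether the numbers pair the samples, and the labels do not say.

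Centring on all features of the same class moved the mean differences to -0.930 points for member promoters, -0.946 for bodies, 0.130 for islands, 0.0926 for shores and -1.87 for shelves. The promoter difference was -0.762 points pooled over calls and -0.274 points as a median. With 1 library left out it was -1.75 to -1.46 points for promoters, -3.82 to -2.33 for bodies, -0.544 to 0.111 for islands, -2.27 to 0.211 for shores and -4.95 to -2.49 for shelves. In the test, single features were centred differently, gene bodies on the mean of all gene features with promoters included. Measured gene features differed by -1.46 points and bodies alone by -2.13 points, so this centring removes less than the mean fall of bodies. Single features were followed through the alternatives for part of the members only, so other members may reverse too. Among those followed, this centring reversed the bodies of Col2a1 (1.31), Col4a1 (0.524), Col4a2 (1.30), Itga3 (1.48), Itga6 (0.0628), Itga7 (0.359), Itgb4 (0.554) and Lama5 (0.618) and the Col6a2 shore at 76596786 (0.419). Among the same features, leaving out 1 library reversed the bodies of Col1a2 (-0.583 to 4.403), Col2a1 (-1.26 to 0.903), Col4a2 (-2.56 to 2.18), Itga3 (-3.94 to 3.93), Itga7 (-2.95 to 0.687), Itgb4 (-2.62 to 0.752), Lama5 (-1.81 to 0.0673) and Lamb2 (-0.446 to 2.75), the Col6a2 islands at 76596335 (-2.23 to 4.90) and 76614378 (-7.52 to 7.65) and that shore (-6.38 to 5.04). The cause was not tested. None of these had an unadjusted p under 0.05 with all libraries.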
